A study of Mus musculus with 4 samples.

Results

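The genes described here encode the transporters that carry glucose and lactate across cell membranes, the enzymes of glycolysis, the enzymes and regulators that set the fate of pyruvate, and the entry to the pentose phosphate pathway. They were taken by symbol from the deposited gene table. All 34 listed members were found among its 15713 genes, and they filled 35 rows because Aldoa had 2 identifiers. Each of the 35 rows passed the filter on low counts. The tissue was hippocampus, and the mice were of the inbred strain C57BL/6 and aged 11 to 12 weeks. The ATO group held 2 libraries from animals whose developmental exposure was to 5000 ppb ATO, and the control group held 2 libraries from untreated animals. ATO is not spelled out in the labels; arsenic and offspring are named in the series title. Nothing in the labels used here gives sex, litter, route or whether a library is 1 animal or a pool, so p-values cover only how far these libraries spread, which may be technical.

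In the brain, glucose crosses the endothelium of blood vessels through the transporter GLUT1 and enters neurons mainly through GLUT3. Glycolysis splits it to pyruvate in the cytosol, lactate dehydrogenase interconverts pyruvate and lactate, and monocarboxylate transporters move lactate between cells. Pyruvate enters mitochondria through a carrier and is turned into acetyl coenzyme A by the pyruvate dehydrogenase complex, which pyruvate dehydrogenase kinases switch off by phosphorylation. GLUT1 is also found in the choroid plexus, whose epithelial cells make cerebrospinal fluid.

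Library totals ran from 14832214 to 17251032 counts, and 1 count was worth 0.058 to 0.0674 CPM (counts scaled to library size). The members together took 0.874% and 0.921% of the counts in ATO, against 0.889% and 1.02% in control. Mitochondrially encoded genes took 6.68% and 6.66% in ATO, against 7.45% and 5.87% in control. Markers of neurons, astrocytes, CA1, CA3 and the dentate gyrus were counted in all 4 libraries, as the hippocampus label asks. All 20 choroid plexus markers rose in ATO. Their summed level was 3369 and 4223 CPM in ATO, against 148 and 217 CPM in control. Of the 20 markers, 19 were counted in a control library, with log2 fold changes between 2.02 and 6.53, and Wfdc2 was at 0 in both controls, so with 3 counts taken as the floor of the pooled controls it was at least 27.6-fold higher.

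The comparison asks how expression in hippocampus exposed to ATO differs from that in control. Among these genes, 3 rose in ATO and 0 fell in edgeR's quasi-likelihood test at a Benjamini-Hochberg adjusted p under 0.05 over all genes tested. They were Slc2a1, the gene of GLUT1, at 1.6-fold, Pdk4, a pyruvate dehydrogenase kinase, at 1.9-fold, and Pfkfb3, which makes the main activator of phosphofructokinase, at 1.34-fold. The genes of the glycolytic enzymes themselves did not pass. Of all genes tested, 2.87% rose and 0.859% fell, or 3.73% in either direction. In the authors' deposited table the same 3 members had an adjusted p under 0.05, as did 3.30% of all genes. The authors' own mark for a differentially expressed gene was set for 0 members, these 3 included. At an unadjusted p under 0.05, 4 member rows were higher and 2 lower in ATO, against 10.6% and 7.55% of all genes (18.1% in either direction). Both ATO libraries lay above both controls in 6 member rows and below them in 8, against 24.8% and 23.4% of all genes.

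The promoters of the 3 genes that rose are shown first, so that the members that moved can be compared by sequence. The sequences are RefSeq windows of GRCm38.p6 from 250 bases before to 50 bases after an annotated start, 5′ to 3′ on the strand of the gene. Capitals mark matches to ACGTG, the core of the hypoxia response element, or CACGTG, the E-box, which contains that core on both strands. Slc2a1 is at chr4:119108495-119108794 on the plus strand, Pdk4 at chr6:5496229-5496528 on the minus strand, and Pfkfb3 has a window at chr2:11553880-11554179 and another at chr2:11502041-11502340, both on the minus strand.
Slc2a1: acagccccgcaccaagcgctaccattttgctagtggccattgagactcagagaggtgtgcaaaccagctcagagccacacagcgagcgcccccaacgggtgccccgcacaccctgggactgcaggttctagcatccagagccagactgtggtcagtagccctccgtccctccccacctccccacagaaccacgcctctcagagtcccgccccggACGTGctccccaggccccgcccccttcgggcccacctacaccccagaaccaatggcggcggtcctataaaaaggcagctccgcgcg
Pdk4: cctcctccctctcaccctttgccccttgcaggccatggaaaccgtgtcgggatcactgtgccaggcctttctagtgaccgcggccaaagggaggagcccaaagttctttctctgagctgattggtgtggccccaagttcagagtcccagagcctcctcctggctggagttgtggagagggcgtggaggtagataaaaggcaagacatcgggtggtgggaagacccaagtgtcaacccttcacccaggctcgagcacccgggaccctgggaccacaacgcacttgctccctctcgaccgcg
Pfkfb3, upstream window: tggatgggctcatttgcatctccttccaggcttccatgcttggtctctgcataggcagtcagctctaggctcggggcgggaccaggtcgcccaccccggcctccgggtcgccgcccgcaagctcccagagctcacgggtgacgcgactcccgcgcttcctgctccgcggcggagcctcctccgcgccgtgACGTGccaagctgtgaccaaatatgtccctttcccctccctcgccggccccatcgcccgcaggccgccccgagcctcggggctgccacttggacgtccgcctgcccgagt
Pfkfb3, downstream window: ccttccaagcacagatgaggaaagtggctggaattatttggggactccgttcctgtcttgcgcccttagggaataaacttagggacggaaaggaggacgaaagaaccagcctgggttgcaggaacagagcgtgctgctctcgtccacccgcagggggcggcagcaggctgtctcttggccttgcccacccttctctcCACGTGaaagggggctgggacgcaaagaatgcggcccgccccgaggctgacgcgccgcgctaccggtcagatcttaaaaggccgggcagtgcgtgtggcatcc

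The Slc2a1 window held 1 match to ACGTG, at 36 bases before the start (bases 215 to 219 of the window). The upstream Pfkfb3 window held 1, at 60 bases before the start (bases 191 to 195), and the downstream one held an E-box CACGTG at bases 198 to 203. The Pdk4 window held no match to these letters or to GTAAACA, a forkhead motif, searched on both strands. Among the members, promoters were matched for 32 of 34 genes, in 50 windows; Slc2a3 and Slc16a7 were not matched. ACGTG stood on either strand in 22 of these 50 windows (44.0%) and in 19.6% of all 32851 windows of the same length. CACGTG stood in 6 (12.0%), against 7.15% of all windows, and GTAAACA in 1 (2.0%, Aldoc), against 3.65%. The member windows had a median G and C content of 61.2%, against 52.7% in all windows. Of the 18 members with ACGTG, only Slc2a1 and Pfkfb3 were among the 3 that rose. Chromosome, start and end are those of the reference table, and a match describes letters only.

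Among the transporters, Slc2a1 (ENSMUSG00000028645, chromosome 4 from 119108711 to 119137983, plus strand, GRCm38) had 136 and 128 normalised CPM in ATO, against 87.5 and 77 CPM in control. Both ATO libraries lay above both controls. The means were 132 ± 5.54 CPM in ATO and 82.3 ± 7.42 CPM in control (SD, n = 2 each). The log2 fold change was 0.68 ± 0.08 (SE), with an adjusted p of 0.000241 in edgeR's test and a 95% interval of 1.42-fold to 1.82-fold. In the authors' deposited table the log2 fold change of Slc2a1 was 0.68, with an adjusted p of 0.00031. An antisense gene, Gm12868, overlaps an exon of Slc2a1, and whether counting used strand is not stated, so reads of both cannot be told apart there. The call held when each library was left out in turn, with log2 fold changes between 0.59 and 0.78.

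Markers of vessels and of the tissues that border the ventricles and the brain surface were read in the same libraries. The choroid plexus markers rose, as given above. Of 9 ependymal and ciliated markers 6 rose and 0 fell, against 2.87% and 0.859% of all genes. Across the 9 the median was 1.33 on the log2 fold change scale. They summed to 49 and 33.8 CPM in ATO, against 15.5 and 19.5 CPM in control. The calls of Cfap126, Rsph1 and Ccdc153 were lost in DESeq2's Wald test (adjusted p = 0.0793, 0.0589 and 0.0815). That of Ccdc153 was also lost in limma-voom (0.0693). Leaving out a library cost these genes, Ak7 and Foxj1 their calls in some fits. Their log2 fold changes then lay between 0.62 (Foxj1) and 2.46 (Cfap126). Of 8 leptomeningeal markers 1 rose and 1 fell, with a median of 0.70 and sums of 127 and 91 CPM in ATO, against 108 and 91.6 CPM in control. The 1 that fell, Dcn (-0.56 ± 0.1), is also listed as a CA1 marker, and 7 of the 8 had a log2 fold change above 0. Of 10 endothelial markers 0 rose and 1 fell, the VEGF receptor gene Kdr (log2 fold change -0.63 ± 0.14, adjusted p = 0.0276), whose call was lost in DESeq2's Wald test (0.0655) and on leaving out control replicate 1 (0.138) or ATO replicate 2 (0.056). The endothelial markers summed to 325 and 322 CPM in ATO, against 391 and 316 CPM in control, with a median log2 fold change of -0.06. At an unadjusted p under 0.05 in edgeR's test, 4 of the 10 were lower and 0 higher, against 7.55% and 10.6% of all genes. Both ATO libraries lay below both controls in 5 of the 10 and above them in 1, against 23.4% and 24.8% of all genes. None of the endothelial markers was at 0 in any library. The part of these cell types in the Slc2a1 result was not tested. In bulk tissue, a change in the number of cells of a type and a change in RNA per cell cannot be told apart.

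Slc2a3, which encodes the neuronal transporter GLUT3 (chromosome 6 from 122727809 to 122801640, minus strand), had 166 and 161 CPM in ATO, against 135 and 152 CPM in control. The ATO libraries were both higher, yet the log2 fold change of 0.19 ± 0.08 had an unadjusted p of 0.0285 and an adjusted p of 0.214, so it did not pass. Slc16a1 encodes the lactate transporter MCT1 of endothelium and glia, and Slc16a7 the high-affinity neuronal carrier MCT2. Neither passed. Their log2 fold changes were 0.08 ± 0.09 for Slc16a1 and 0.01 ± 0.11 for Slc16a7, with 95% intervals of 0.918-fold to 1.21-fold and 0.86-fold to 1.18-fold. On the per-length scale of the deposited FPKM (fragments scaled to transcript length and library size), the 2 glucose transporters stood close in control, at 23.4 ± 1.98 for Slc2a1 and 19.7 ± 1.7 for Slc2a3 (SD, n = 2). The ratio of Slc2a1 to Slc2a3 in FPKM was 1.69 and 1.64 in ATO, against 1.34 and 1.05 in control, and the groups did not overlap. With 2 libraries per group an exact permutation test cannot reach 0.05, so this and the other isozyme ratios are given with no test.

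**Figure D1:**
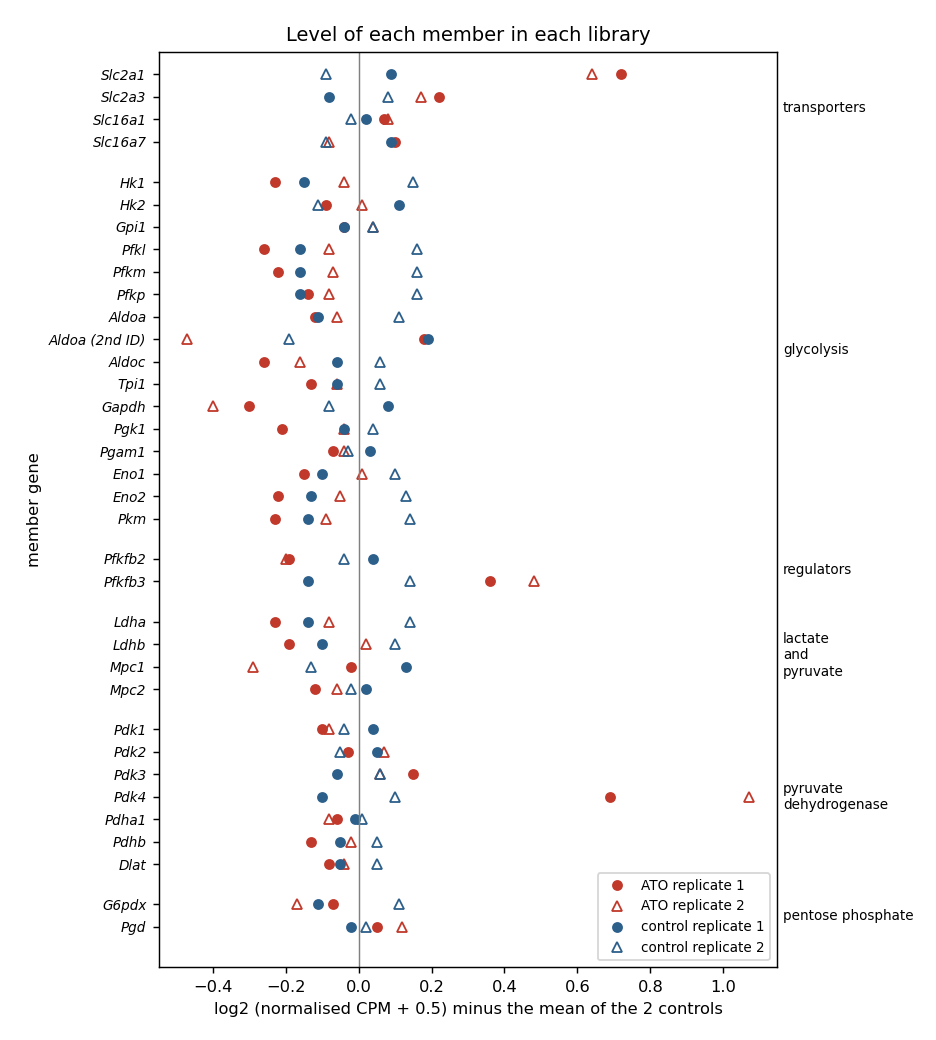
Level of every member in each of the 4 libraries, as log2 (normalised CPM + 0.5) minus the mean of both controls (x axis), grouped by role (y axis), with ATO in red and control in blue and the replicate number given by the symbol. Slc2a1, Pdk4 and Pfkfb3 stand to the right in both ATO libraries, while the groups overlap in 12 of the 16 rows of glycolytic enzymes and Gapdh lies at -0.30 and -0.40 in ATO.

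The 15 glycolytic enzyme genes filled 16 rows, of which 0 passed in either direction in edgeR's test, DESeq2 or limma-voom; 2, Aldoc and Gapdh, had an unadjusted p under 0.05 in edgeR's test. Their median log2 fold change was -0.13, against 0 over all genes tested, and 15 of 16 rows had a log2 fold change below 0, as did 51.0% of all genes. Gpi1, the glucose-6-phosphate isomerase gene, was the exception, at 0.00 ± 0.08. In 4 of the 16 rows both ATO libraries lay below both controls, against 23.4% of all genes. Control replicate 2 was above control replicate 1 in 12 of 16 rows and ATO replicate 2 above ATO replicate 1 in 14 of 16, against 50.2% and 51.4% of all genes. Relative to the control mean the median enzyme stood at -0.18 and -0.06 (log2) in ATO, against -0.08 and 0.08 in control. Without control replicate 2 the median was -0.02 and 10 of 16 rows were below 0, and without ATO replicate 1 the median was -0.06 and 13 of 16 were. Without control replicate 1 the median was -0.23 and 14 of 16 were below 0, and without ATO replicate 2 it was -0.18 and 15 of 16 were.

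Several of these genes were very abundant. Among all 333 genes with a mean of at least 100 FPKM, 72.7% had a log2 fold change below 0, with a median of -0.05, and 31.8% had both ATO libraries below both controls. Of the 6 members at that level (Aldoa, Aldoc, Tpi1, Pkm, Eno2 and Ldhb), all 6 were below 0, with a median of -0.12. Neuron markers had a median of -0.06 and were below 0 for 8 of 10. They summed to 11798 and 12094 CPM in ATO, against 12430.1 and 12045 CPM in control. Of 10 astrocyte markers, a list that holds the member Aldoc, 1 rose, Gjb6 (0.44 ± 0.09), and 0 fell. The Gjb6 call was lost without control replicate 2 and without ATO replicate 1. At an unadjusted p under 0.05 in edgeR's test, 4 of the 10 were higher and 2 lower. The astrocyte markers had a median of 0.05 and summed to 4446 and 4715 CPM in ATO, against 4643 and 4385 CPM in control. Of 6 markers of CA1 pyramidal neurons 4 fell, with sums of 479 and 607 CPM in ATO, against 692 and 686 CPM in control. Dcn, 1 of these 4, is also the leptomeningeal marker that fell. Of 8 dentate gyrus markers 2 rose and 0 fell, with a median of 0.31 and sums of 671 and 612 CPM in ATO, against 571 and 514 CPM in control. Of 6 interneuron markers 0 rose and 1 fell, with a median of -0.27 and sums of 686 and 738 CPM in ATO, against 782 and 853 CPM in control. The part of these cell types in the enzyme values was not tested.

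Aldoa, which encodes the aldolase of muscle and brain, was the most abundant member, at 568 and 582 FPKM in ATO, against 562 and 661 FPKM in control. Its log2 fold change was -0.09 ± 0.09, and the groups overlapped. The adjusted p was 0.621. The other Aldoa identifier, ENSMUSG00000114515, lies just upstream on chromosome 7 from 126800790 to 126809108 and had 28 and 14 counts in ATO, against 24 and 17 counts in control. That row is too shallow to say more than a 95% interval of 0.475-fold to 1.69-fold.

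Aldoc encodes aldolase C, the form of astrocytes and Purkinje cells (chromosome 11 from 78322968 to 78327781, plus strand). It had 669.7 and 719 CPM in ATO, against 770.4 and 834 CPM in control. Each ATO library was below both controls. The log2 fold change was -0.21 ± 0.08, with an unadjusted p of 0.0184 and an adjusted p of 0.173, so it did not pass. Gapdh, the glyceraldehyde-3-phosphate dehydrogenase gene often used as a reference, had 19.5 and 18.2 CPM in ATO, against 25.5 and 22.9 CPM in control. The groups did not overlap. Its log2 fold change of -0.36 ± 0.12 had an unadjusted p of 0.00892 and an adjusted p of 0.119.

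Hexokinase 1 (Hk1) traps glucose as its phosphate in neurons and glia, and hexokinase 2 (Hk2) is its inducible relative. Hk1 was at -0.14 ± 0.1 and Hk2 at -0.04 ± 0.19 on the log2 fold change scale. The 3 phosphofructokinase genes, whose products commit sugar to glycolysis, lay together at -0.18 ± 0.1 for Pfkl, -0.15 ± 0.1 for Pfkm and -0.12 ± 0.09 for Pfkp. Neither these nor the genes of the lower steps passed. Tpi1 (triosephosphate isomerase), Pgk1 (phosphoglycerate kinase), Pgam1 (phosphoglycerate mutase), Eno1 and Eno2 (the ubiquitous and the neuronal enolase) and Pkm (pyruvate kinase) lay between -0.16 and -0.06. Setting the second Aldoa identifier aside, the 95% intervals of the enzymes reached at most down to 0.653-fold (Gapdh) and up to 1.28-fold (Hk2). In counts simulated for this comparison, 22.8% of genes changed by the smallest step (25% up, or down by the same ratio) were recovered, against 77.6% at 1.5-fold and 96.8% at 2-fold. The spread was that fitted to these libraries. The changed genes were drawn above a floor of mean CPM, so rows as shallow as the second Aldoa identifier are not covered.

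**Figure D2:**
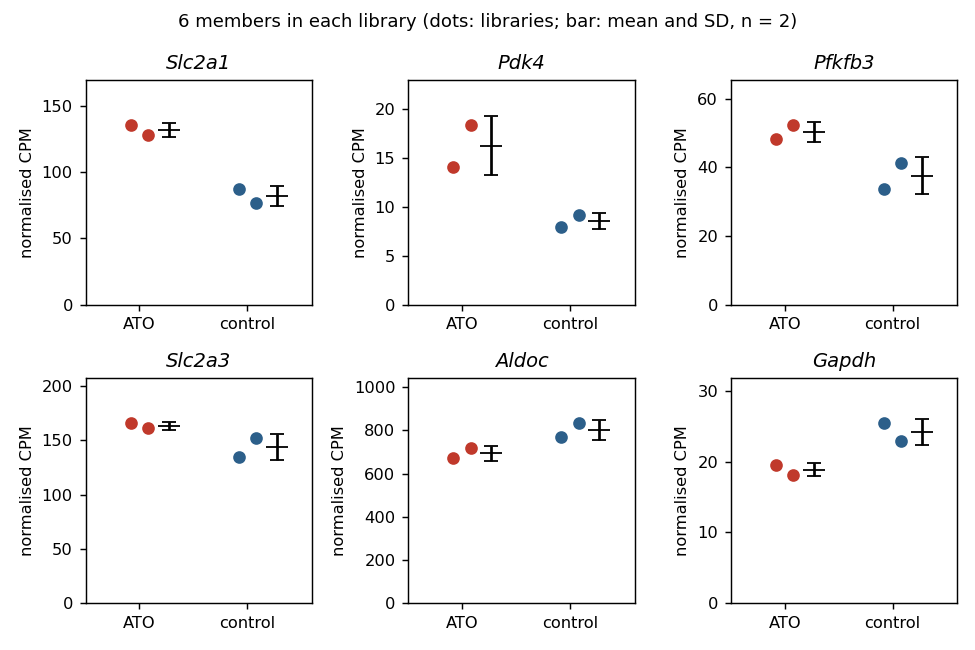
Normalised CPM (y axis, from 0) of 6 members in each library, with ATO left of control; dots are libraries and the bars give mean and SD (n = 2). Slc2a1, Pdk4 and Pfkfb3 passed the test, while Slc2a3, Aldoc and Gapdh had an unadjusted p under 0.05 and did not pass.

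The level listed for Gapdh was far below that of its neighbours in the pathway. It had 4.76 and 4.37 FPKM in ATO, against 6.12 and 5.54 FPKM in control, while Tpi1, which acts one step earlier, had 226.7 and 234.5 FPKM in ATO, against 233.9 and 257.8 FPKM in control. Each protein-coding transcript of the members in GENCODE vM21 was therefore broken into words of 50 bases. The share found, on either strand, in transcripts of other genes of any type was taken. These shares also count genes that overlap the member. For Gapdh 58.4% of the words were shared. Outside its locus, 222 other genes held such words, of which 213 are annotated as pseudogenes. The share was 68.0% for Pgk1, 49.5% for Eno1, 41.5% for Pgam1, 30.3% for Pdhb and 1.56% for Slc2a1, and it was 0 for Aldoc, Hk2, Slc2a3 and Pdk2. For Pfkfb3 it was 0.53% and for Pdk4 1.41%. How reads that match several places were treated is not given in the sources used here, and the part of shared words in these levels was not tested. Levels of Gapdh, Pgk1, Eno1 and Pgam1 are thus uncertain between genes, and reads of a gene and its copies cannot be told apart where the words are shared. The same limit holds for members with a lower share, such as Pdhb, Pkm (23.7%) and Ldhb (21.0%).

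**Figure D3:**
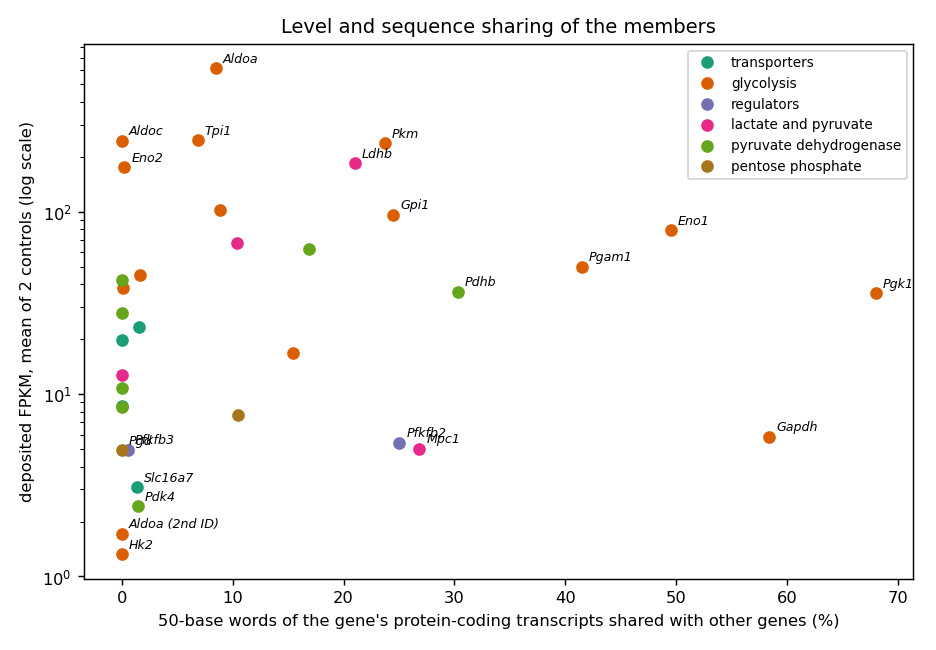
Deposited FPKM of each member as the mean of both controls (y axis, log scale) against the percentage of 50-base words in its protein-coding transcripts that other genes share (x axis), coloured by role. Gapdh lies at 5.83 FPKM with 58.4% of its words shared, and Aldoa at 611 FPKM with 8.46%. Pgk1, with 68.0% shared, lies at 35.8 FPKM and Eno1, with 49.5%, at 79 FPKM, while Hk2, with 0% shared, is the lowest at 1.32 FPKM.

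On the FPKM scale the order of the members in control was read with Gapdh, Pgk1, Eno1 and Pgam1 set aside. It began with Aldoa at 611 ± 70.2, followed by Tpi1 at 246 ± 16.9, Aldoc at 245 ± 15.1 and Pkm at 237 ± 32.8 (SD, n = 2). The last 3 did not differ beyond their spread. Ldhb at 185 ± 19.5 and Eno2 at 175 ± 22.6 came next and overlapped each other. At the low end stood Slc16a7 at 3.08 ± 0.247, Pdk4 at 2.42 ± 0.255 and Hk2 at 1.32 ± 0.148. In ATO the 6 highest were in the same order, and Pdk4 stood above Slc16a7, at 4.62 ± 0.827 and 3.11 ± 0.311 FPKM.

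Among the regulators, Pfkfb3 and Pfkfb2 encode bifunctional enzymes that set the level of fructose-2,6-bisphosphate. Pfkfb3 (ENSMUSG00000026773, chromosome 2 from 11471433 to 11554077, minus strand) had 48.2 and 52.4 CPM in ATO, against 33.8 and 41.3 CPM in control. The groups did not overlap, and control replicate 1 was the lowest. The log2 fold change was 0.42 ± 0.11, with an adjusted p of 0.0441 in edgeR's test and a 95% interval of 1.14-fold to 1.56-fold. This call is the least stable of the 3. In DESeq2's Wald test its adjusted p was 0.0994. Leaving out control replicate 1 gave a log2 fold change of 0.28 (adjusted p = 0.162), and leaving out ATO replicate 2 gave 0.36 (adjusted p = 0.13). In the authors' deposited table its adjusted p was 0.047. Pfkfb2, a form of heart and brain, had 34.6 and 34.4 CPM in ATO, against 40.7 and 38.3 CPM in control. Both ATO libraries lay below both controls, but the log2 fold change of -0.2 ± 0.1 had an adjusted p of 0.298. The log2 ratio of Pfkfb3 to Pfkfb2 was 0.48 and 0.61 in ATO, against -0.27 and 0.11 in control.

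For lactate and pyruvate handling, Ldha and Ldhb encode the lactate dehydrogenase subunits that favour lactate and pyruvate formation. Ldhb, the more abundant of these members, had 163.7 and 185.8 FPKM in ATO, against 171 and 198.6 FPKM in control. The groups overlapped, with a log2 fold change of -0.09 ± 0.09, and Ldha stood at -0.16 ± 0.09. The log2 ratio of Ldha to Ldhb was -0.43 and -0.48 in ATO, against -0.42 and -0.35 in control, a difference of -0.07 between groups whose SDs were 0.04 in ATO and 0.05 in control. Mpc1 and Mpc2, the 2 subunits of the mitochondrial pyruvate carrier, were at -0.16 ± 0.18 and -0.09 ± 0.08. Of these 4 genes 0 passed in edgeR's test, DESeq2 or limma-voom, and 0 had an unadjusted p under 0.05 in edgeR's test.

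At pyruvate dehydrogenase, Pdk4 (ENSMUSG00000019577, chromosome 6 from 5483351 to 5496309, minus strand) had 14.1 and 18.4 CPM in ATO, against 7.94 and 9.14 CPM in control. In counts this was 245 and 306 in ATO, against 117 and 138 in control. Pdk4 encodes the kinase form known to be induced by fasting and by glucocorticoids in muscle and liver. Both ATO libraries lay above both controls, and the ATO libraries differed more from each other than the controls did. The log2 fold change was 0.93 ± 0.17, with an adjusted p of 0.00789 in edgeR's test and a 95% interval of 1.47-fold to 2.45-fold. Without control replicate 1 the call was lost (log2 fold change 0.83, adjusted p = 0.0564). In the authors' deposited table Pdk4 had a log2 fold change of 0.91 and an adjusted p of 0.00954.

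The other 3 kinases did not pass. Pdk2, the most abundant of them in this tissue, was at 0.02 ± 0.08, Pdk1 at -0.09 ± 0.08 and Pdk3 at 0.1 ± 0.11 on the log2 fold change scale. Per length, Pdk4 stood at 0.0964 and 0.117 of the Pdk2 FPKM in ATO, against 0.0511 and 0.0635 in control. Pdk4 thus remained the minor form. The subunits of the complex itself did not pass either. Pdha1, the catalytic alpha subunit and the most abundant of this group, had 225 and 221 CPM in ATO, against 232 and 236 CPM in control. The groups stood apart by little, with a log2 fold change of -0.07 ± 0.07 and an adjusted p of 0.676. Pdhb and Dlat, the beta subunit and the acetyltransferase, were at -0.07 ± 0.08 and -0.06 ± 0.08.

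At the entry to the pentose phosphate pathway, G6pdx, the X-linked glucose-6-phosphate dehydrogenase gene that supplies NADPH, had 22.6 and 21 CPM in ATO, against 21.9 and 25.5 CPM in control. The groups overlapped, and the log2 fold change was -0.12 ± 0.12 (adjusted p = 0.654). Pgd, the next dehydrogenase that forms NADPH, had 33 and 34.5 CPM in ATO, against 31.3 and 32.2 CPM in control. Both ATO libraries were above both controls by little, and it did not pass (0.08 ± 0.1, adjusted p = 0.715).

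**Figure D4:**
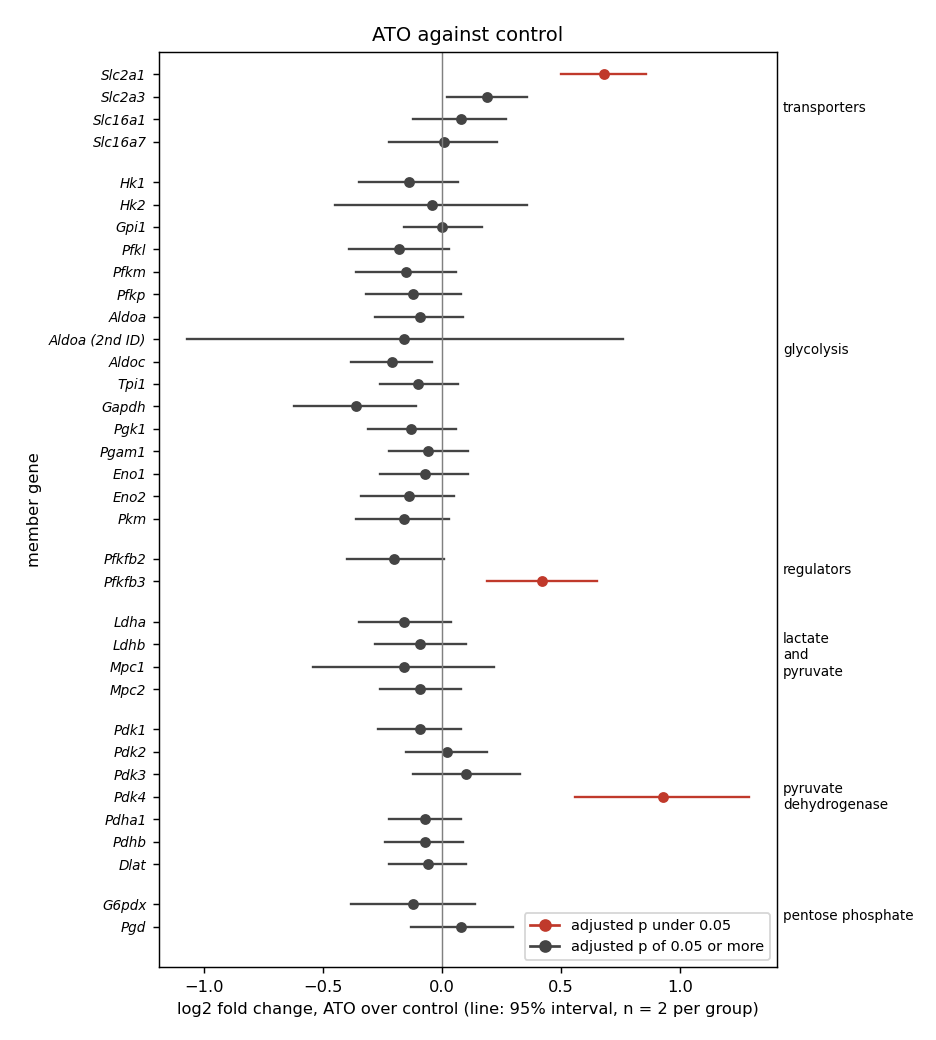
Log2 fold change of each member, ATO over control (x axis), with its 95% interval as a line, grouped by role (y axis); red marks an adjusted p under 0.05 and grey the rest. Slc2a1 at 0.68, Pdk4 at 0.93 and Pfkfb3 at 0.42 stand clear of 0, and the intervals of most of the enzyme genes include 0, those of Aldoc and Gapdh excepted.

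The other genes of the pathway were read in 8 lists, chosen with earlier results of these data known. They held 125 tested genes that are no members, of which 11 rose and 0 fell, against 2.87% and 0.859% of all genes. Of 12 further glucose and monocarboxylate transporters or their partners 3 rose and 0 fell. At an unadjusted p under 0.05 in edgeR's test, 5 were higher and 2 lower, against 10.6% and 7.55% of all genes. The 2 lower, named here for their direction, were Slc2a8 (log2 fold change -0.44 ± 0.16) and Slc16a3 (-1 ± 0.43), and neither passed. Slc2a12, which encodes the transporter GLUT12, had 14.4 and 20.8 CPM in ATO, against 2.85 and 3.84 CPM in control (log2 fold change 2.39 ± 0.22, adjusted p = 1.57e-05). It lay higher in both ATO libraries by more than any member. Slc16a8, the lactate transporter MCT3 of the choroid plexus and the retinal pigment epithelium, had 3.73 and 4.39 CPM in ATO, against 1.76 and 0.993 CPM in control (1.56 ± 0.33, adjusted p = 0.0198, and 0.144 without control replicate 2). Emb, whose product escorts monocarboxylate transporters to the membrane, rose by 0.42 ± 0.11 (adjusted p = 0.045), and its call was lost when any 1 library was left out, with an adjusted p between 0.0932 and 0.207, and in DESeq2's Wald test (0.169) and limma-voom (0.0505). Without control replicate 2, 1 of the 12 transporters rose. All 20 choroid plexus markers and 6 of 9 ependymal and ciliated markers rose in the same libraries. The part of these tissues in the transporter values was not tested.

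Among 22 genes of hypoxia-inducible factors and other regulators of glucose genes, 3 rose. Txnip, whose product limits glucose uptake and is induced by glucose, had 32.9 and 30.4 CPM in ATO, against 17.8 and 18.1 CPM in control. The replicates lay close together and the groups far apart, with a log2 fold change of 0.82 ± 0.11 and an adjusted p of 0.000587. Its relative Arrdc4 rose by 0.66 ± 0.15 (adjusted p = 0.0284), a call lost in DESeq2's Wald test (0.0687) and on leaving out control replicate 1 (0.118) or ATO replicate 2 (0.0541). The forkhead factor gene Foxo3 rose by 0.52 ± 0.11 (adjusted p = 0.0165, and log2 0.33 with 0.119 without control replicate 2). Foxo1 did not pass, at 0.33 ± 0.1 (adjusted p = 0.0829), but passed without ATO replicate 2 (log2 0.45, adjusted p = 0.0177).

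Of 13 hypoxia-induced genes tested, 5 rose and 0 fell, with the member Slc2a1 among those that rose, against 2.87% and 0.859% of all genes. The genes of the list without a call are named here to complete it. Their log2 fold changes were 0.3 for Kdm3a, 0.12 for Vegfa and Ndrg1, 0.03 for Bnip3l and 0.01 for Bnip3. Higd1a was at -0.1, Egln3 at -0.13 and Ankrd37 at -0.25. P4ha1, a collagen prolyl hydroxylase subunit, had 89.9 and 90.8 CPM in ATO, against 50.2 and 53.9 CPM in control (log2 fold change 0.8 ± 0.08, adjusted p = 4.47e-05). The replicates of each group lay close together. Ddit4, an inhibitor of mTOR signalling that glucocorticoids also induce, rose by 0.5 ± 0.1 (adjusted p = 0.00928). P4ha2, a relative of P4ha1, rose by 0.59 ± 0.13 (adjusted p = 0.0237). Mxi1, a MYC antagonist chosen after its values were seen, rose by 0.33 ± 0.08 (adjusted p = 0.0464). The call of P4ha2 was lost in DESeq2's Wald test (0.069) and on leaving out control replicate 1 (0.092), control replicate 2 (0.0566) or ATO replicate 2 (0.0882). That of Mxi1 was lost without any 1 library, with an adjusted p between 0.0765 and 0.245, and in DESeq2's Wald test (0.154) and limma-voom (0.0519). Leaving out any library but ATO replicate 1 left 3 of the 13 with a call. Hypoxia targets among the enzymes, such as Ldha, Pgk1 and Pdk1, did not pass, at -0.16, -0.13 and -0.09. Pfkfb3 passed, at 0.42, and windows of Pfkfb3, Ldha and Pgk1 all held ACGTG. Reads of Pgk1 and its copies cannot be told apart where words are shared. The part of hypoxia in these values was not tested.

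Of 18 other glycolysis genes, 18 other genes of pyruvate entry, 17 of the tricarboxylic acid cycle and 7 of the pentose phosphate pathway, 0 passed in edgeR's test, and 2, 6, 0 and 1 had an unadjusted p under 0.05. Across all 8 lists DESeq2's Wald test made 7 calls and limma-voom 9, and none of these was in the 4 lists just named. The medians were -0.08, -0.09, -0.06 and 0.01. The lowest p values belonged to Pgam2 (-0.5 ± 0.19, adjusted p = 0.179), Pdpr (-0.38 ± 0.14, 0.147), Sucla2 (-0.13 ± 0.07, 0.365) and Rpe (0.24 ± 0.1, 0.229). Of 20 glycogen genes 1 rose, Ppp1r3c, which targets protein phosphatase 1 to glycogen. It had 52.5 and 53 CPM in ATO, against 41 and 37 CPM in control (0.44 ± 0.09, adjusted p = 0.0183, and 0.122 without control replicate 2, which left 0 of the 20). The brain glycogen phosphorylase gene Pygb, named after its values were seen, did not pass, at 0.16 ± 0.08.

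**Figure D5:**
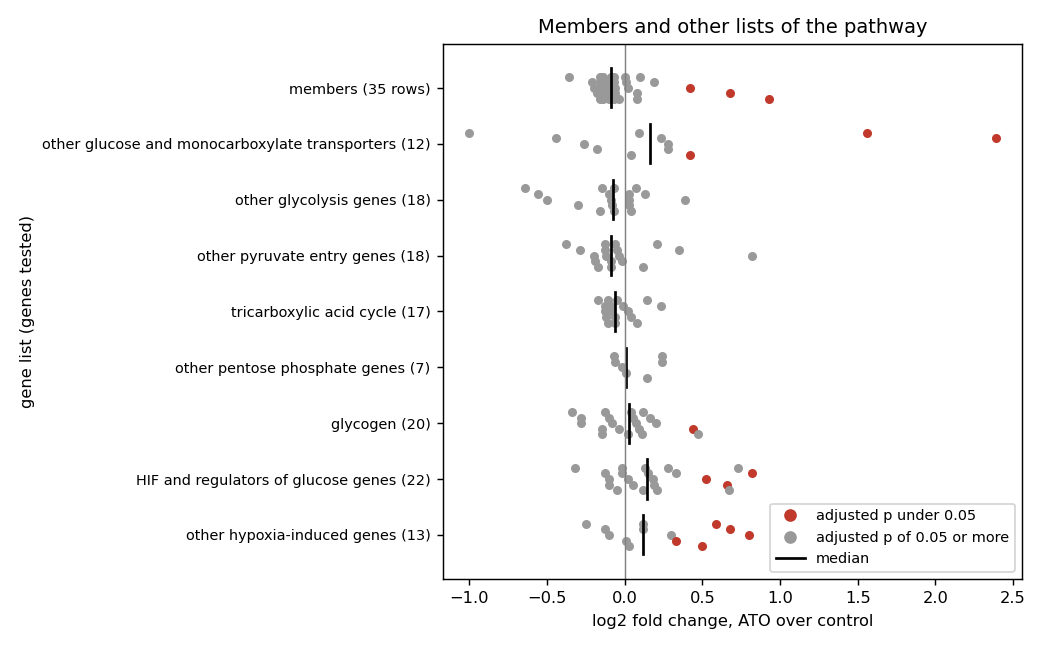
Log2 fold change, ATO over control (x axis), of each tested gene in the member rows and in 8 other lists (y axis), with the black line at each median and red for an adjusted p under 0.05. The calls lie among transporters, regulators, hypoxia-induced genes and 1 glycogen gene, and the 4 enzyme lists without a call have medians between -0.09 and 0.01.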

How the data were processed

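Libraries were built from hippocampal mRNA with an Illumina TruSeq kit, per the labels' protocols. The submitters' processing notes name limma 3.47.15, R 4.1.0, HTSeq 0.6.1, HISAT2 2.0.1, cutadapt 1.9.1, FastQC 0.10.1 and the build GRCm38. Their settings, strand use included, are not stated. Per the file headers, the authors deposited a count and an FPKM value per gene and library, and their own log2 fold change, p-value and adjusted p-value. FPKM served only to set genes beside each other.

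The fit was edgeR 4.0.16 (R 4.3.3) on all 15713 genes: quasi-likelihood, TMM (factors 0.994 to 1.01), no covariate. Its low-count filter, filterByExpr, removed 0 genes. Alternatives were DESeq2 1.42.0, limma-voom (limma 3.58.1), other factors or filters, a replicate block and fewer libraries. The biological coefficient of variation was 7.16%. On simulated counts with 200 changed genes, 10 of 134 calls were false. Members and lists were chosen with earlier results of these data known. Values per library are given for members that passed, had an unadjusted p under 0.05, or were highest by FPKM in their role. Of each other list, up to 4 genes by p are named, with exceptions marked; 1 gene that the rule names is not reported here. Gene positions come from GENCODE vM21 (GRCm38) and promoters from RefSeq (GRCm38.p6).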

Additional observations from a re-analysis of the deposited data

How the results depend on the processing

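Slc2a1 passed under every alternative run, Pdk4 under all but 1 and Pfkfb3 under all but 3, as given above. The count of members that passed, 3 and all higher, was 1 to 3 with a library left out. Of all genes, 586 passed (451 higher, 135 lower). With a library left out this was 222 to 611, with 180 to 443 higher and 42 to 168 lower. DESeq2's Wald test called 316 (252 higher, 64 lower), and 296 were higher among genes with a mean of at least 10 CPM. The 11 calls of the other pathway lists became 7 in DESeq2's Wald test and 5 to 9 with a library left out.

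The replicate number as a block gave 1366 genes (890 higher, 476 lower) and 5 members, 2 of them lower, Aldoc (adjusted p = 0.0414) and Gapdh (0.0491). It gave 15 calls in the other pathway lists, among them Pdpr (log2 fold change -0.39, adjusted p = 0.038) and Foxo1 (0.33, adjusted p = 0.0128), which had not passed. The replicate differences of the groups correlated at 0.244 across genes. With 2 pairs and no shared litter or batch in the labels, the numbers only name the libraries.

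For 11 member rows that did not pass, leaving out a library turned the sign of the log2 fold change. The ranges were -0.09 to 0.1 for Slc16a7, -0.28 to 0.01 for Hk1, -0.16 to 0.08 for Hk2, -0.04 to 0.04 for Gpi1, -0.3 to 0.02 for Pfkm and -0.27 to 0.05 for Pfkp. They were -0.2 to 0.02 for Aldoa, -0.7 to 0.22 for its second identifier, -0.17 to 0.03 for Eno1, -0.19 to 0.02 for Ldhb and -0.04 to 0.08 for Pdk2. The cause was not tested. With 2 libraries per group, changes under 1.5-fold were often below what the test recovers.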
